A study of Homo sapiens with 15 samples.

Results

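Cells overexpressing miR-565 were compared with cells in which miR-565 was blocked, on 3 of the 15 two-channel whole human genome arrays of the series, chosen by their titles as the 3 replicates of miR-565. The cells were A549, an established human lung adenocarcinoma line. One batch of cells in each comparison received 20 nM of a precursor oligonucleotide (a mimic, here miR-565, labeled with Cy5) and the other 20 nM of an antisense locked nucleic acid oligonucleotide (an antagomir, labeled with Cy3), and RNA was taken 24 h after transfection. The other 12 arrays had the same layout, with 3 for miR-766, 3 for miR-629*, 3 for miR-181d and 3 for miR-574-3p, and served as the reference for the dyes. No dye was swapped, so for a single miRNA the dye and the treatment cannot be told apart, and no untreated or mock-transfected cells were hybridized. The labels number the replicates but do not say whether they were separate transfections, so p-values here measure only the spread between these arrays, which may be technical.

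A microRNA is a small RNA that guides the Argonaute complex to partly complementary sites in mRNAs, usually lowering their stability or translation. A mimic adds to this activity and an antagomir takes it away, so an mRNA repressed by the miRNA would be lower in the Cy5 channel than in the Cy3 channel. The entry for miR-565 was later withdrawn from the miRNA registry because its sequence matches a transfer RNA. Ribosomal proteins, which return several times in the results, are built from very abundant mRNAs and have many processed pseudogene copies in the human genome, so that array probes for them often also fit a copy.

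The probes on which the results turned most were those for RPL23A, a protein of the large ribosomal subunit near the exit of the nascent chain, and for its copies. The first 3 stretches, each 30 bases of a probe of 60 bases, are shown because a copy can differ from RPL23A by a single base over such a stretch. Capitals mark bases that differ from the RPL23A probe. Positions are those of the whole probe in NCBI36, on the plus strand.
RPL23A at chr17:24073905-24073964: tgagtccgccatgaagaagatagaagacag
ENST00000332696 at chr14:34025181-34025240: tgagtccgccatgaagaagatagaagacaA
MGC70863 at chr22:49584169-49584228: tgagtcGgccGtgaagaagatagaagaAaA
The copy on chromosome 14 had 1 mismatch in this stretch and the copy on chromosome 22 had 4, and all 3 probes were called below. The next stretches are the first 30 bases of the probes for NDUFB4, RPL11 and KPNA2, and of the 2 probes for AGMAT, which gave different results. The AGMAT probes lie on the minus strand and the others on the plus strand.
NDUFB4 at chr3:121803779-121803838: tggatcgaacatttcacctctcatattaag
RPL11 at chr1:23893760-23893819: aaacaacttctcagatactggaaactttgg
KPNA2 at chr17:63473120-63473179: tgaaggctacactttccaagttcaggatgg
AGMAT distal at chr1:15771987-15772046: ttttgatgatctgcttcctagagtattgag
AGMAT proximal at chr1:15772683-15772742: aaccgtctgagtcttgtgctcttcaagaca

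Replicate 1 of miR-565 stood apart from the other 14 arrays, and the main results are therefore given with and without it. Replicates 2 and 3 were on the same slide, and arrays of a slide were correlated. The fit without replicate 1 did not model this, so its p-values may be too small. The log2 ratio of Cy5 over Cy3 had an SD across genes of 0.94 on replicate 1, 0.35 on replicate 2 and 0.40 on replicate 3, and 0.29 to 0.53 on the 12 other arrays. A change of over 2-fold was seen for 21.2% of genes on replicate 1, 2.49% on replicate 2, 4.21% on replicate 3 and 1.27% to 7.35% on the others. The deviation lay in Cy5, whose log signals correlated with those of the other arrays at 0.959 to 0.975, while any pair of the other arrays reached at least 0.987. The Cy3 channel of replicate 1 correlated at 0.993 to 0.996, within the range of at least 0.99 for all pairs of arrays. Fewer of its Cy5 probes were well above background, 68.1% against 72.6% on replicate 2, 71.7% on replicate 3 and 72.4% to 75.5% elsewhere. Its ratio rose with the GC content of the probe on replicate 1 (Spearman's rho = 0.29 across 31324 probes), whereas rho lay between -0.39 and 0.01 on the other 14 arrays. Its median ratio went from -0.11 in the quintile of probes lowest in GC to 0.45 in the highest quintile, and that of replicate 2 from 0.11 to -0.10. Whether labeling, RNA quality or another step caused this was not tested.

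**Figure D1:**
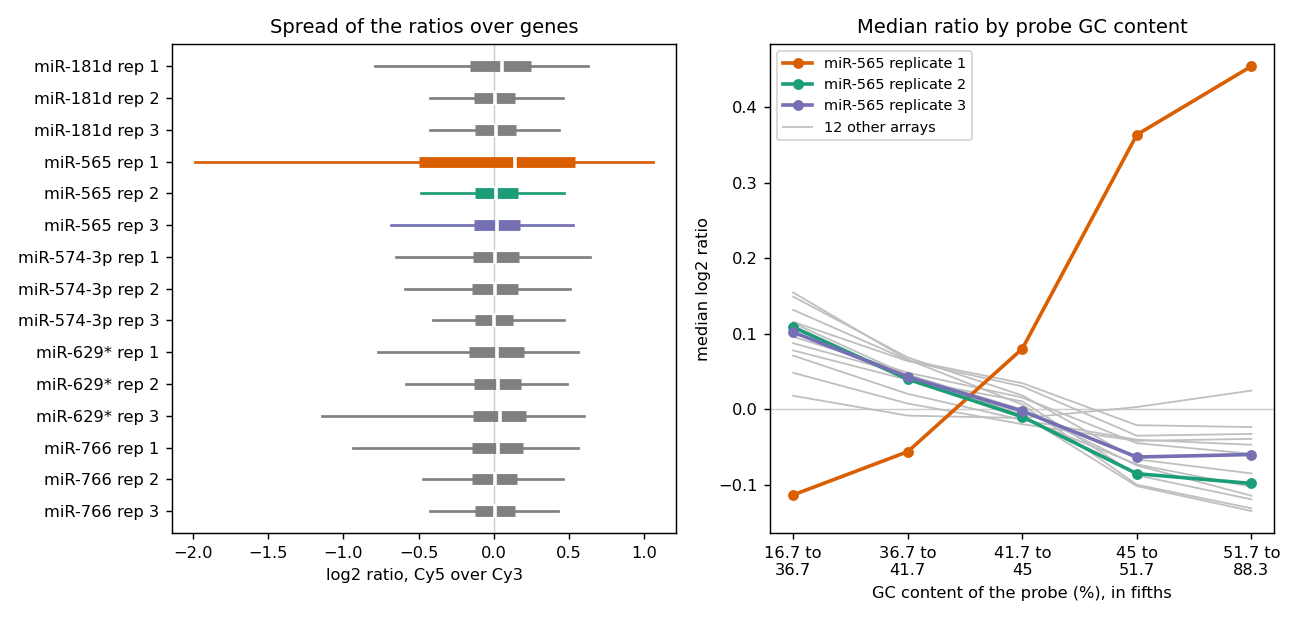
Left, log2 ratio of Cy5 over Cy3 across genes on each of the 15 arrays (white gap, median; thick bar, middle 50% of genes; thin line, middle 90%). Right, median log2 ratio of the probes in each quintile of probe GC content. Replicate 1 of miR-565 (orange) has the widest spread, 3.05 between the 5th and 95th percentiles, and its median ratio climbs with GC, while replicates 2 and 3 lie among the 12 other arrays (gray).

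Single genes showed how far replicate 1 departed from its partners. CENPF, a kinetochore protein, had a log2 ratio of -3.89 on replicate 1, and 0.13 and 0.11 on replicates 2 and 3. Its Cy5 signal was 1978 on replicate 1, against 20670 and 20100, and its Cy3 signal was 29410, against 18850 and 18670. ASPM, a spindle pole protein, had ratios of -3.57, 0.22 and 0.19. The other genes furthest below their values on replicates 2 and 3 were HMMR (-3.44) and MPHOSPH1 (-3.49), whose proteins act in mitosis, and AKAP9 (-3.58) and GOLGA4 (-3.45), whose proteins are found at the Golgi. On replicates 2 and 3 all 6 genes lay between -0.01 and 0.31. In the other direction, the 6 genes furthest above their values on the partners had ratios of 1.01 to 1.66 on replicate 1 and -0.38 to 0.49 on replicates 2 and 3. ARTN, a neurotrophic factor, had 1.54, 0.24 and 0.15, against -0.21 to 0.35 on the 12 other arrays. GINS4 of the replicative helicase had 1.25, -0.20 and -0.19, but also varied from -2.28 to 1.65 on the other arrays. All these genes were chosen for their difference between replicates, and their values are a description without a test.

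Most epithelial and drug-metabolism markers of A549 were well measured. KRT8, KRT18, KRT7 and KRT19 (keratins), AKR1B10, AKR1C1 and ALDH1A1 were well above background in both channels on the 3 arrays, with signals up to 225000. Lung markers of the same list were dim, with NKX2-1 at 30.6 to 78.8 and SFTPC at 54.2 to 145 over both channels, and SFTPB was well above background on 1 of the 3 arrays in each channel. Among markers of leukocytes, endothelium and fibroblasts, CDH5, COL1A2, DCN, PDGFRB, PECAM1 and PTPRC were not well above background in either channel on any of the 3 arrays. ACTA2, CD14, CD3E and COL1A1 were above it in both channels, and VWF in Cy5 alone. The whole list of A549 and lung epithelial markers, drug-metabolism genes included, summed to between 944000 and 1570000 per channel and array.

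The first question was which mRNAs were lower in cells overexpressing miR-565 than in cells given the antagomir. With the thresholds of the study's methods (ratio under 0.5, unadjusted p at most 0.001, Cy3 signal at least 20), 12 genes of 22998 tested were suppressed in the limma fit, and 17 were induced by the mirrored thresholds. All of them had the same sign on the 3 arrays. The counts changed with each array left out, to 1 suppressed and 3 induced genes without replicate 1, 80 and 57 without replicate 2, and 5 and 34 without replicate 3. The median log2 ratio of the 12 suppressed genes was -1.59 with miR-565 and -0.40 with the other miRNAs. The mean ratio of the other miRNAs had the same sign for 11 of the 12 suppressed genes and for all 17 induced genes. Only 1 of the 12, and none of the 17, differed from the other miRNAs at an adjusted p under 0.05 with the 3 arrays. Among the 17 induced genes, 12 were not well above background in 1 of the channels on at least 1 array.

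Of the 12 suppressed genes, 2 had a gene symbol. RPL11, a large-subunit ribosomal protein that also binds MDM2, had log2 ratios of -2.06, -0.59 and -0.52 on replicates 1 to 3, against -0.29 to -0.03 (median -0.10) on the 12 other arrays. All 3 values lay below all 12. The difference from the other miRNAs was -0.94 with replicate 1 (limma adjusted p = 0.318) and -0.44 without it (adjusted p = 0.0085). PCDH17, a cell adhesion protocadherin, had ratios of -3.56, -2.25 and -2.31, against -2.19 to 0.18 (median -0.28) elsewhere. Its Cy5 signal was 10.3, 16.3 and 15.6, well above background on 2 of the 3 arrays. Its fitted ratio of -2.71 (standard error 0.58, adjusted p = 0.0197) includes the dim array and is no exact value. Setting Cy5 to at least the lowest signal well above background changed nothing (Cy3 6.53-fold higher, 4.85-fold without replicate 1). No lower bound on the fold is therefore given. The difference from the other miRNAs of -2.04 did not pass (adjusted p = 0.318; -1.61 and 0.824 without replicate 1). Within slide 2, which also carried 2 arrays of miR-574-3p, it was -0.13. Within slide 1, the difference of replicate 1 from the miR-181d arrays was -3.42. In Cy3 alone PCDH17 had 121, 77.8 and 76.9, all above the range of 18.5 to 45.2 of the other arrays.

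Most induced genes were dim in the antagomir channel. PIK3AP1, an adaptor of PI3-kinase in immune cells, had log2 ratios of 4.45, 3.21 and 3.19, and the 12 other arrays gave 1.11 to 3.83. Its Cy3 signal was not well above background on any miR-565 array, so Cy5 was at least 2.58-fold higher (1.92-fold without replicate 1). APOC2, the activator of lipoprotein lipase, had ratios of 3.44, 2.97 and 2.84 against 1.41 to 3.25, and was above background in Cy5 on all 15 arrays and in Cy3 on none, which gives at least 2.18-fold (1.60-fold without replicate 1). In the same way C12orf42 was at least 3.15-fold higher in Cy5 (2.62-fold without replicate 1), and DNER, a Notch ligand, at least 2.36-fold (1.92-fold without it). DMRTC1, whose Cy3 signal was above background on 2 of the 3 arrays, had ratios of 2.23, 1.20 and 1.87 against 0.94 to 1.49. CXCR3, a chemokine receptor, was measured in both channels, with ratios of 1.70, 0.93 and 0.94 against -0.20 to 1.27. None of these 6 passed the test of the difference from the other miRNAs (adjusted p = 0.318 to 0.627, and 0.861 to 1 without replicate 1).

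Changes of any size were called at an adjusted p under 0.05 against a ratio of 1. With the 3 arrays, 633 genes (2.75%) were lower and 1994 (8.67%) higher in cells overexpressing miR-565. Without replicate 1 these were 1216 (5.29%) and 1961 (8.53%). Arrays of a slide were correlated (consensus correlation 0.73), and with the slide as a random block 8 genes were lower and 2 higher. The calls shared with the same sign numbered 1259, which is 47.9% of those with 3 arrays and 39.6% of those without replicate 1. Of the 2627 genes called with 3 arrays, 2538 (96.6%) had the same sign in the mean of the other miRNAs, and dye and treatment cannot be told apart for them. Results below therefore compare the miR-565 ratio with the mean ratio of the other miRNAs, in which an effect of the dye common to all arrays cancels.

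Relative to the other miRNAs, 20 genes (0.087%) were lower and 1 (0.00435%) was higher with miR-565. Without replicate 1, 30 (0.13%) were lower and again 1 (0.00435%) higher, and these included all 21 genes of the first fit with the same sign. Without replicate 2 there were 16 lower and 6 higher, and without replicate 3 there were 13 and 5, so the count of higher genes was not stable. At an unadjusted p under 0.05 there were 3435 genes with the 3 arrays and 1292 without replicate 1. The 30 lower genes were RPL23A and its copies, NDUFB4 and RPL11 each with a copy, a few other named genes, and unannotated probes. For 24 of the 30, all 3 miR-565 arrays lay below all 12 others, which held for 0.439% of all genes tested. The 30 were called against these same 12 arrays, so this count describes them and is no further test. On replicate 1, 28 of the 31 genes lay on the same side of the other miRNAs.

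RPL23A had log2 ratios of -0.67, -0.64 and -0.57 on the 3 miR-565 arrays, against -0.17 to 0.07 (median 0.02) on the 12 others. Its difference from the other miRNAs was -0.61 (standard error 0.06, adjusted p = 0.0024), and -0.59 without replicate 1 (adjusted p = 0.00228). Unlike CENPF, RPL23A was alike on replicate 1 and its partners. The Cy3 signal was 216400, 162200 and 143100 on the miR-565 arrays and 79150 to 116400 (median 105300) elsewhere. The Cy5 signal was 136000, 103800 and 96070, against 76130 to 114700. These are bright signals, and 0 spots other than controls were saturated on the 15 arrays. After quantile normalization of each channel, RPL23A was higher by 0.57 in Cy3 (adjusted p = 1.09e-05) and differed by -0.02 in Cy5. The difference thus lay in the antagomir channel. A change in the number of cells with a transcript and in the RNA per cell cannot be told apart in such bulk samples. Within slide 1, replicate 1 was -0.70 below the miR-181d arrays, and within slide 2 replicates 2 and 3 were -0.65 below those of miR-574-3p.

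Other probes for RPL23A and its copies were lower for the most part where they were bright. A probe was counted here if its description names RPL23A or L23a (22 probes), or if it shares at least 18 bases in a row with such a probe (4 probes), a rule set after the values were seen. Of these 26 probes, 12 were lower with miR-565 in both fits, and none was higher. Over all 31324 probes tested, 25 (0.0798%) were lower with the 3 arrays and 37 (0.118%) without replicate 1. The called probes differed by -0.62 to -0.47, with mean Cy3 signals of 15650 to 173900. In that range of signal, the probes of LOC441743 and ENST00000332617 were not called (-0.02 each). The median over the 26 was -0.38, and -0.46 without replicate 1, beside 0.04 and 0.00 over all probes. Among the 4 probes placed in RPL23A itself, 3 were called (-0.61, -0.55 and -0.54), and the dimmest, with a mean Cy3 signal of 3126, was not (-0.11, adjusted p = 0.343). Probes of the family can share target molecules, so they are not independent measurements, and which of the copies were transcribed cannot be told from them. On the brighter of its 2 probes RPL23AP7, an annotated pseudogene, had ratios of -0.49, -0.51 and -0.54 against -0.16 to 0.10, a difference of -0.51 (adjusted p = 0.00302) and -0.53 without replicate 1 (adjusted p = 0.00228), while the dimmer probe gave -0.00 (adjusted p = 0.995).

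**Figure D2:**
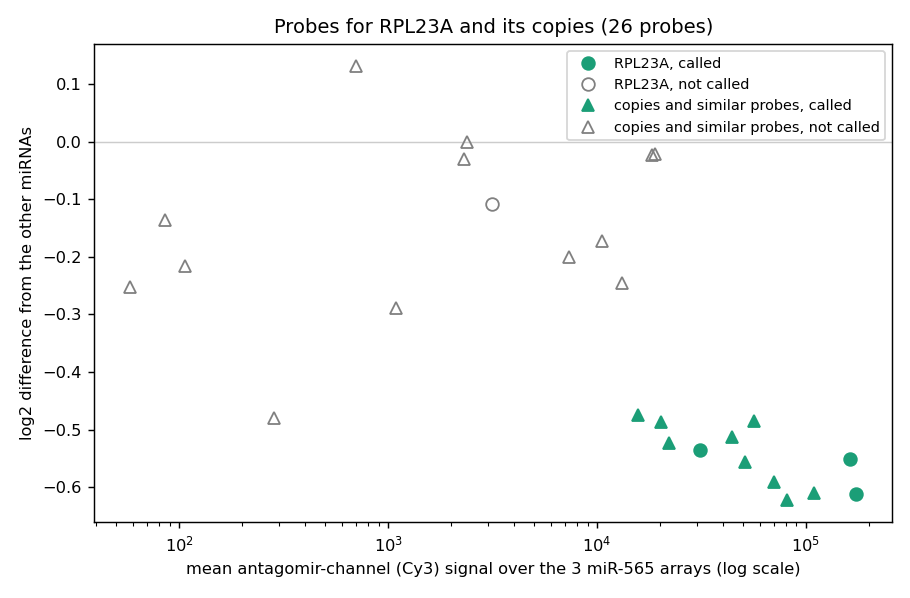
Difference of the miR-565 log2 ratio from the other miRNAs (3 arrays) against the mean Cy3 signal on a log axis, for the 26 probes of RPL23A (circles) and its copies (triangles). The 12 filled probes, called lower, lie between -0.62 and -0.47 and have Cy3 signals of at least 15650, and 2 open triangles of similar signal lie at -0.02.

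Most other ribosomal protein genes did not share the difference. Among 78 genes with a ribosomal protein symbol, 1 was lower with the 3 arrays and 2 without replicate 1 (RPL23A and RPL11), beside 0.087% and 0.13% of all genes. The median difference of the 78 without replicate 1 was 0.02. A copy similar to RPL11, LOC649228, named after its values were seen, was also called. Its ratios were -1.39, -0.93 and -0.76 against -0.48 to 0.34, and it differed by -1.08 (adjusted p = 0.0066) and by -0.90 without replicate 1 (adjusted p = 0.0215). RPL36, also of the large subunit, was higher in Cy3 by 0.28 without replicate 1 (adjusted p = 0.0191), but its ratio of -0.11, -0.37 and -0.40 was not called against the other miRNAs (-0.28, adjusted p = 0.205).

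NDUFB4, an accessory subunit of respiratory complex I, had ratios of -0.48, -0.55 and -0.63, against -0.04 to 0.09 (median 0.01) on the other arrays. The 3 values lay well below all 12. The difference was -0.57 (standard error 0.05, adjusted p = 0.0024), and -0.61 without replicate 1 (adjusted p = 0.000742). Its Cy3 signal was 35180, 22510 and 24040 against 12350 to 17620, and its Cy5 signal 25290, 15340 and 15540 against 12400 to 18760. NDUFB4 differed by 0.58 in Cy3 (adjusted p = 4e-07) and by 0.06 in Cy5. A copy described as similar to NDUFB4, LOC402175, also named after its values were seen, had ratios of -0.03, -0.75 and -0.75, and differed by -0.76 without replicate 1 (adjusted p = 0.00228) but not with it (-0.52, adjusted p = 0.318). Of 37 genes with an NDUF symbol, NDUFB4 alone was called in either fit, and the median without replicate 1 was 0.04. Over all genes, 0.087% were called lower with the 3 arrays and 0.13% without replicate 1.

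Other named genes that were called had varied functions. KPNA2, an importin that carries cargo into the nucleus, had ratios of -0.89, -0.47 and -0.45 against -0.14 to -0.06, and differed by -0.36 without replicate 1 (adjusted p = 0.00328) and by -0.50 with it (adjusted p = 0.0633). KPNA2 was named after its values were seen. MYST3, a histone acetyltransferase now called KAT6A, had ratios of -0.67, -0.12 and -0.17, against 0.01 to 0.77 (median 0.26), so that its difference of -0.66 (adjusted p = 0.0373; -0.49 and 0.0238 without replicate 1) came partly from high values on the other arrays. OBFC2B, a single-stranded DNA binding protein now called NABP2, had -0.05, -0.49 and -0.61 against -0.07 to 0.16. It was called without replicate 1 (-0.59, adjusted p = 0.0105) and not with it (-0.42, adjusted p = 0.318). The Cy3 signal of OBFC2B was 2502, 1916 and 1866, above the range of 858 to 1341 on the other arrays in each case.

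AGMAT, agmatinase, an enzyme that converts agmatine to putrescine, differed on 1 of its 2 probes. It was singled out after the values were seen, and the other, brighter probe is the one used in the gene counts. On the distal probe the ratios were -1.26, -2.04 and -2.22, against -0.60 to 0.46 (median -0.19). The Cy3 signal was 487, 394 and 350 against 69.5 to 164, and the Cy5 signal 204, 95.7 and 75.1 against 46.0 to 146. The 3 miR-565 values were above all 12 in Cy3, and those of replicates 2 and 3 lay inside the range in Cy5. The difference of the ratio was -1.70 (standard error 0.21, adjusted p = 0.00631), and -1.99 without replicate 1 (adjusted p = 0.00228), and that in Cy3 was 1.83 (adjusted p = 6.37e-09). The proximal AGMAT probe disagreed. Its ratios were 0.62, -0.06 and 0.02, its Cy3 signal of 1530, 1276 and 1226 was near the 929 to 1499 of the other arrays, and its difference was 0.29 (adjusted p = 0.318), and 0.07 without replicate 1.

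**Figure D3:**
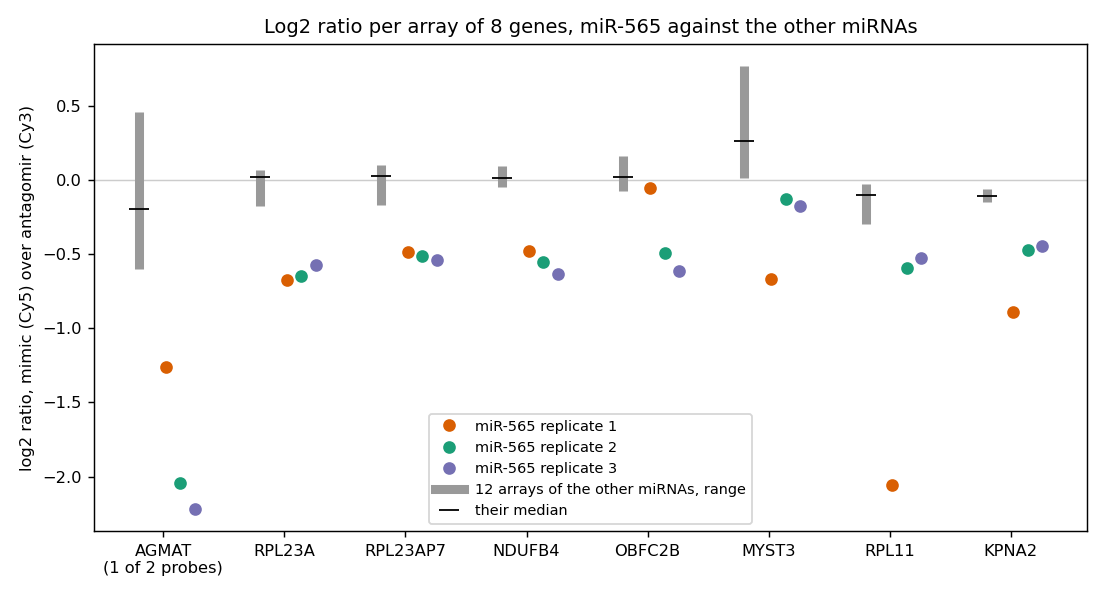
Log2 ratio of Cy5 (mimic) over Cy3 (antagomir) for 8 genes on the 3 miR-565 arrays (colored points), with the range (gray bar) and median (black line) of the 12 other arrays. RPL23A, RPL23AP7 and NDUFB4 lie close together on all 3 arrays, near -0.5 to -0.7, while RPL11 reaches -2.06 on replicate 1 and OBFC2B is near 0 there.

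A few called genes rested on the other arrays or on dim signals, and are named here after their values were seen. FGFRL1, a decoy receptor for fibroblast growth factors, had ratios of 0.56, -0.15 and -0.23, inside the range of -0.26 to 2.28 of the other arrays. It was called without replicate 1 (-0.74, adjusted p = 0.00286) and not with the 3 arrays (-0.49, limma adjusted p = 0.318). Within slide 2 the difference from miR-574-3p was -2.33, while within slide 1 replicate 1 differed from miR-181d by 0.75, the other direction. DEPDC2, an exchange factor for Rac, was the gene called higher. Its ratios of 2.04, 2.04 and 1.94 lay above the range of 0.00 to 0.93, for a difference of 1.62 (adjusted p = 0.00405), but its Cy3 signal was 3.07, 2.37 and 1.61 and on no miR-565 array well above background. With the signal bounded by background, Cy5 was at least 1.04-fold higher with the 3 arrays, and without replicate 1 no bound above 1 remained. A difference of DEPDC2 from the other miRNAs is therefore not established. MYCL1 was not above background in either channel and is given no fold.

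Of the 31 genes called without replicate 1, 29 were well above background in both channels on all 3 miR-565 arrays, which leaves out DEPDC2 and MYCL1. In all 29, which were lower, the difference from the other miRNAs was larger in the antagomir channel than in the mimic channel. The median was 0.53 in Cy3 (range 0.26 to 0.97) and -0.03 in Cy5, without replicate 1, and 28 of them moved by less than 0.2 in Cy5. Of the 29, 28 were also called in Cy3 with the opposite sign on the same arrays. In Cy5 alone no gene was called with 3 arrays (4514 at an unadjusted p under 0.05) and 1 without replicate 1. In Cy3 alone, 391 genes (1.7%) were lower and 259 (1.13%) higher than with the other antagomirs, and 138 (0.6%) and 102 (0.444%) without replicate 1. This split was not stable, with 67 lower and 98 higher without replicate 3, and 949 and 336 with scaling to the 75th percentile. The mRNA of a channel was compared here only with the same dye on other arrays, so that a difference in the RNA and one in labeling cannot be told apart.

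**Figure D4:**
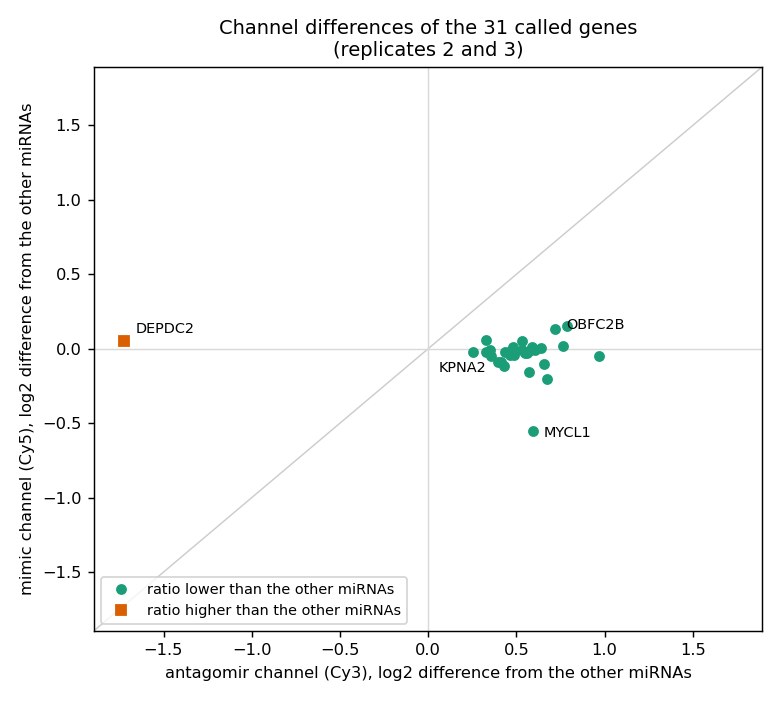
Difference from the other miRNAs in the Cy5 (mimic) channel against that in the Cy3 (antagomir) channel for the 31 called genes, on replicates 2 and 3. The 29 lower genes (green) well above background in both channels lie at 0.26 to 0.97 on the horizontal axis with a median of -0.03 on the vertical axis. DEPDC2 (orange) is drawn at -1.72 on the horizontal axis but was not well above background in Cy3, so that position is no measured value. MYCL1, also green, is drawn at 0.59 on the horizontal and -0.55 on the vertical axis. It was not well above background in either channel, so neither position is a measured value.

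Cy3 calls that held in both fits numbered 230, of which 102 were higher and 128 lower with the miR-565 antagomir. The 102 had a median of 0.38 in Cy3 and 0.04 in Cy5, and after quantile normalization 70 of them lay above all 12 others on all 3 arrays, as did 1.18% of all genes. The 128 had a median of -0.46 in Cy3 and -0.35 in Cy5, with the same sign in Cy5 for 109, and 36 lay below all 12 others on all 3 arrays, beside 0.674% of all genes. Both lists were called on these same arrays, so the counts of 70 and 36 describe them and are no further test. Genes named from these lists were chosen after their values were seen. IFITM2 and IFITM3, membrane proteins that restrict virus entry, were higher in Cy3, by 0.41 each without replicate 1. The Cy3 signal of IFITM3 was 1034, 925 and 766 against 503 to 742. None of the 26 interferon-response genes of the gene list used here was called in Cy3. Over all genes, 1.7% were lower and 1.13% higher in Cy3 (0.6% and 0.444% without replicate 1), so the absence of calls in so short a list says little. IDH3G, a subunit of the citric acid cycle enzyme isocitrate dehydrogenase, was higher by 0.39 (2436, 1945 and 1790 against 1078 to 1684). SIRT2, a deacetylase, was higher by 0.34 (1091, 901 and 827 against 564 to 828 before quantile normalization). The mitochondrially encoded CYTB, ND1 and ND2 were higher by 0.42, 0.29 and 0.35, and ND6 differed by -0.55 without replicate 1 (adjusted p = 0.0075) and was not among the 230. COX1 (-0.86, adjusted p = 0.0916) and ND3 (0.14, adjusted p = 0.248) were not called in Cy3 without replicate 1, and the ratio of none of the 6 mitochondrial genes tested was called. A further mitochondrial probe, for AY029066, is not the one used in the gene counts and was named after its values were seen. Its ratio was called lower without replicate 1 (-0.80, limma adjusted p = 0.0215) and not with the 3 arrays (-1.38, adjusted p = 0.205). The AY029066 ratios on replicates 2 and 3 were 0.03 and -0.003, inside the range of -0.08 to 1.87 of the other arrays. The call thus rested on high values of the other arrays. ILDR1, an immunoglobulin-like receptor, was lower in Cy3 (-0.62) and had a difference of -0.68 in Cy5, which was not called. ERH and NDUFB3 were among the 128, but their Cy3 signals on the miR-565 arrays (12000 to 18160 and 8300 to 11930) lay inside the ranges of the other arrays (9086 to 33960 and 7146 to 20140).

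Gene lists for pathways that a miRNA, an oligonucleotide transfection or a transfer RNA sequence might touch held few genes called against the other miRNAs. RPL23A and NDUFB4, called in both fits, are members of none of these lists, which bears on the counts for ribosomal proteins and the respiratory chain. In 20 of the 21 lists no member was called against the other miRNAs in either fit, and in the list of 60 ribosomal proteins RPL11 was called without replicate 1. Over all genes, 0.087% were lower with the 3 arrays and 0.13% without replicate 1. At that share, lists of this size would hold few calls, so the absence of calls says little about them. The median differences of the lists without replicate 1 lay between -0.07 (20 cytosolic aminoacyl-tRNA synthetases) and 0.10 (6 other cell type markers), beside 0.00 over all genes. With the 3 arrays they lay between -0.19 (heat shock proteins) and 0.28 (other cell type markers), beside 0.04 over all genes. Genes of transfer RNA processing (25 tested) and of microRNA processing (18 tested) had medians of -0.01 and 0.00 without replicate 1 (-0.01 and -0.08 with it), and the interferon and double-stranded RNA response (26 tested) had 0.04 (0.12 with it). HIST1H2BD, a histone H2B, had a difference of 0.70 that missed the threshold with 3 arrays (adjusted p = 0.0633), and of 0.59 without replicate 1 (adjusted p = 0.186). Its ratios were 0.57, 0.20 and 0.24, against -0.84 to 0.11.

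Against a ratio of 1, where an effect of the dye does not cancel, several lists held calls. Over all genes, 2.75% were lower and 8.67% higher with the 3 arrays, and 5.29% and 8.53% without replicate 1, while blocking on the slide left 10 calls in all. Among 25 AP-1 and immediate early genes, 8 were higher and 1 lower in cells overexpressing miR-565, and 6 and 1 without replicate 1. Their median ratio was 0.50, 0.12 and 0.11 on the 3 arrays and 0.09 with the other miRNAs. EGR1, an immediate early transcription factor, had ratios of 1.43, 0.71 and 0.78 against -0.22 to 1.25, and was called with the 3 arrays (adjusted p = 0.019) but not without replicate 1 (adjusted p = 0.0611). Of 26 clustered histone genes 6 were higher, with medians of 0.54, 0.06 and 0.13 on the 3 arrays and 0.00 with the other miRNAs. Of 29 proteasome subunits 5 were lower and none higher (9 and 4 without replicate 1), with medians of -0.36, -0.02 and -0.01. Mitotic and kinetochore genes (33 tested) had a median of -0.40 on replicate 1, and -0.02 and 0.01 on its partners. Heat shock proteins and chaperones (24 tested) had -0.48 on replicate 1, and 0.00 on replicates 2 and 3.

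**Figure D5:**
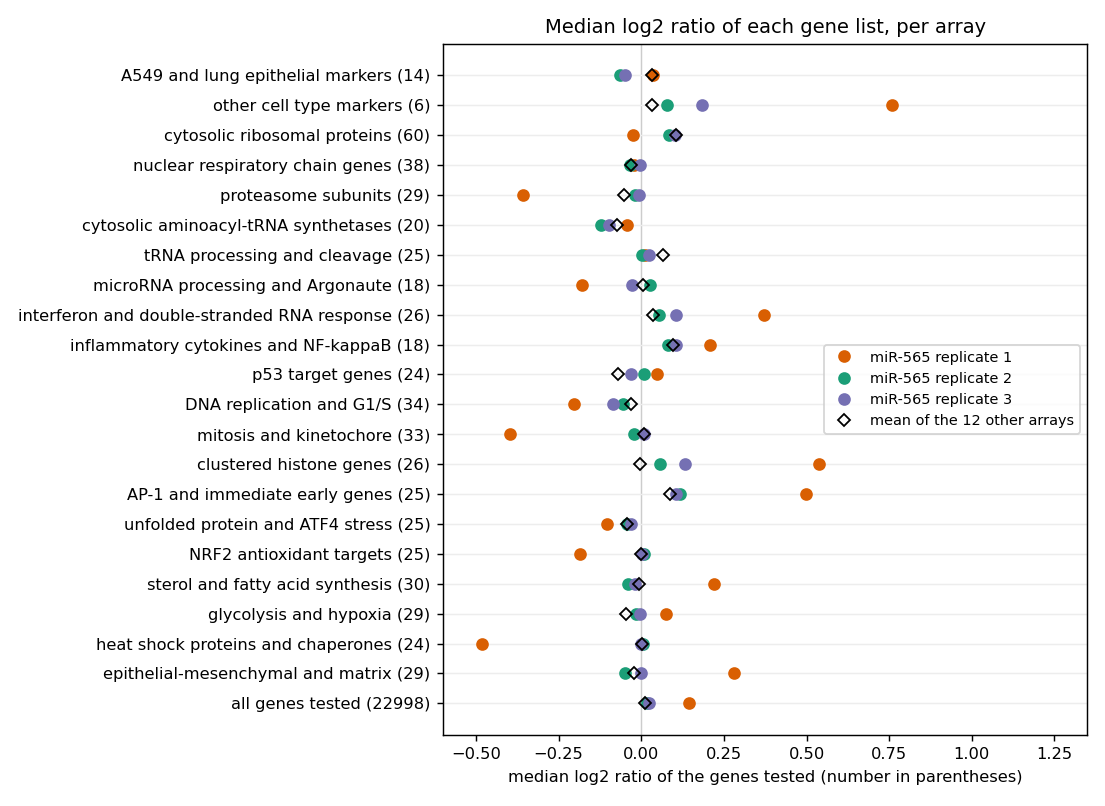
Median log2 ratio of each gene list (number of genes tested in parentheses) on the 3 miR-565 arrays (colored points) and in the mean of the 12 other arrays (open diamonds). Replicates 2 and 3 lie near the diamonds, while replicate 1 ranges from -0.48 for heat shock proteins to 0.76 for other cell type markers.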

How the data were processed

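The authors deposited the Agilent Feature Extraction (version 9.5.3, per the submitters' processing notes) output of each array, with background-subtracted, dye-normalized processed signals on a linear intensity scale, and the deposited series table holds the log10 of Cy5 over Cy3 of the same arrays. The error-weighted statistics named in the study's methods were not used here. Processed Cy5 intensity was divided by Cy3 intensity, and log2 values were averaged over the spots of a probe without control spots and outlier-flagged spots (508 on the miR-565 arrays). Of 41000 probes, 31357 exceeded background clearly, in Cy5 or Cy3, on 3 or more of the 15 arrays, and 31324 of these, also measured on all miR-565 arrays and on an array of every other miRNA, were tested. They represent 22998 gene names, each by its brightest probe, of which 14389 matched RefSeq (GRCh38.p14). Ratios were fitted with limma 3.58.1 (R 4.3.3) on all 15 arrays, with a mean for each miRNA and a trended prior variance, and p-values were Benjamini-Hochberg adjusted over the probes tested. Channels were quantile normalized and fitted alike. A channel not well above background on an array was set to at least the lowest signal of a probe that was, which gives the bounds called at least N-fold. A signal not well above background can still exceed that lowest signal, as for PCDH17, so the bounds are approximate. Precision is limited by the number of arrays. The fits were tested on simulated data, drawn without correlation between arrays of a slide, so p-values under such correlation were not tested. Named genes were up to 6 suppressed and 6 induced with the largest ratio, up to 6 in each direction with the largest difference from the other miRNAs without replicate 1 (called, well above background in both channels, signal at least 20 and replicate 1 on the same side), up to 6 in each direction with the largest gap between replicate 1 and its partners (signal at least 100), and up to 3 members of each gene list, all with a gene symbol. Genes outside this rule are marked as chosen after their values were seen. The members, gene lists and tests were chosen with earlier results of these data known. Slides 1 and 2 held the miR-565 arrays. Alternatives were each array left out, other background correction, scaling, filters, weights and blocks. Probe positions are from the deposited files (NCBI36). Of the markers of other cell types, 1 is not reported here.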

Additional observations from a re-analysis of the deposited data

Results flagged for a closer look

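For 8 probes the fitted mimic-to-antagomir ratio of miR-565 differed from the mean of the other miRNAs by limma's test of that difference (adjusted p under 0.05 without replicate 1). The differences were -0.61 for NDUFB4, -0.59 for RPL23A, -0.59 for OBFC2B, -0.53 for RPL23AP7, -0.49 for MYST3, -0.44 for RPL11, -1.99 for the distal probe of AGMAT and 1.61 for DEPDC2. The Cy3 signal of DEPDC2 was well above background on none of the miR-565 arrays, no bound on its ratio above 1 remained without replicate 1 (1.04-fold with the 3 arrays), and normexp and loess gave a difference of 0.10, so that its difference is not established. With the 3 arrays, NDUFB4, RPL23A, RPL23AP7, MYST3, AGMAT and DEPDC2 also passed, while OBFC2B and RPL11 did not. OBFC2B and RPL11 thus passed only on replicates 2 and 3 of miR-565, which shared a slide.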

How the results depend on the processing

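The number of suppressed genes, 12, was 1 to 80 when a miR-565 array was left out, 4 with normexp and loess, 7 with median centring, 35 with the replicate block, 2 with the slide block, 5 with dim probes left out and 6 at a minimum signal of 100. The number of induced genes, 17, was 3 to 57 with an array left out, 0 with normexp and loess, 6 with array weights, 1 with the slide block, 4 with dim probes left out and 2 at a minimum signal of 100. Genes at an adjusted p under 0.05, 2627, were 1881 to 5415 with an array left out, 9145 with array weights (0.0324 for replicate 1), 10 with the slide block and 0 in a fit of the 3 miR-565 arrays alone, which has fewer arrays to estimate the spread. Normexp and loess split them into 1040 lower and 1656 higher, against 633 and 1994. The number that differed from the other miRNAs, 21, was 18 to 31 with an array left out, 324 with array weights (165 lower and 159 higher), and 18 to 30 under the other alternatives. In Cy5 it was 0, and 0 to 1 with an array left out; in Cy3 it was 650, with 165 to 261, 1285 with scaling to the 75th percentile and 1868 with the slide block. The causes were not tested. Arrays of different miRNAs with the same replicate number correlated above 0.1 in 13 of 30 pairs (median 0.06). With different numbers this held for 16 of 60 pairs (median -0.05). Whether replicate numbers pair the arrays is therefore not settled. The replicate block gave 24 genes that differed from the other miRNAs. NDUFB4, RPL23A and RPL23AP7 kept their calls under all 11 alternatives (highest adjusted p = 0.0232, 0.0232 and 0.0325). MYST3 lost its call in 3 of 11, DEPDC2 in 2 of 10 (0.10 with normexp and loess) and the distal AGMAT probe in 1 of 11 (adjusted p = 0.051). The differences of NDUFB4, RPL23A, RPL23AP7, MYST3, DEPDC2 and the distal AGMAT probe kept their sign throughout. The balance of directions in the counts did not always hold. Against a ratio of 1, 633 genes were lower and 1994 higher, but 8 and 2 with the slide block. Suppressed and induced genes were 12 and 17, but many alternatives reversed this. The counts were 80 and 57 without replicate 2, 35 and 16 with the replicate block, and 13 and 6 with array weights. They were 4 and 0 with normexp and loess, and 2 and 1 with the slide block. With dim probes left out they were 5 and 4, and at a minimum signal of 100 they were 6 and 2. Without replicate 1 (1 and 3) or replicate 3 (5 and 34), and with median centring (7 and 16), induced genes remained the more numerous.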
